A study of Chlamydomonas reinhardtii with 8 samples.

Results

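This report concerns 48 of the 10000 oligonucleotide probes on an Agilent array of the green alga Chlamydomonas reinhardtii: those of moderate brightness at 23 °C that stood among the brightest after heat shock. Each probe was ranked by its signal within each array, as a percentile with the brightest probe at the top. A member had a rank of at least 50 and below 90 on all 4 control arrays, and of at least 95 on all 4 heat shock arrays. The members were thus chosen by ranks of the measured signals in both groups, so the values below that compare heat shock with control are a description and no test of a rise. A rank sets the brightness of a probe beside that of other probes, and brightness depends on the probe's own binding and labelling as well as on its transcript.

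The heat shock group was 4 arrays of strain CC-124 cultures kept in light for 45 min after a shift to 42 °C. The control group was 4 arrays of CC-124 cultures in the light at 23 °C, also labelled 45 min. CC-124 is a laboratory strain, and the cultures of both groups were grown on acetate medium (TAP). Total RNA of whole cells was labelled with Cy3, one sample per array, with the same amount of RNA in each labelling per the labels. The protocol lists growth in the dark or in continuous light before treatment without saying which applied to which array. The design text speaks of 3 biological replicates, fewer than the 4 arrays of a group, so SEs and p-values measure how far arrays differ and may hold technical spread. A single slide carried the 8 arrays, with replicates 1 and 2 of both groups in its first row and replicates 3 and 4 in its second.

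In a heat shock, unfolding proteins release heat shock transcription factors, which switch on genes for chaperones and proteases while transcription and translation of many other genes are turned down. Chlamydomonas is a long-used model of this response, with chaperones in its cytosol and its chloroplast whose messages accumulate within the first hour. Some heat shock genes are nearly silent in unstressed cells, while others are already transcribed at moderate levels because their proteins serve folding at all times. Which genes the 48 probes report is not known here. The files describe all 10000 probes as unknown, and 0 probe names were found in the reference gene table of 17742 loci (RefSeq, assembly Chlamydomonas_reinhardtii_v5.5). The members are therefore given by probe ID and sequence, without gene name, locus or role, and the alga's marker genes could not be looked up.

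The sequences below are those of the 3 members with the largest fold change as read and the 3 with the smallest, a member that was saturated on every heat shock array, and 5 members that differed most or least between arrays. They are written as the scanner files give them, in lower case. Capitals in 9769.E mark a run of 8 bases that occurs 2 times in the probe.
9769.E: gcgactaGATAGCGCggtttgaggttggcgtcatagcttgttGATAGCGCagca
9199.E: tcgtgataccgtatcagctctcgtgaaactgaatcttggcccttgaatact
4432.C: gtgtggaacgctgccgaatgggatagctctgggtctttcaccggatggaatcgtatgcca
9317.E: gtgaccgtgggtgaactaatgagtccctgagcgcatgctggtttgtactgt
5914.C: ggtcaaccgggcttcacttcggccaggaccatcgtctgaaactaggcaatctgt
2689.C: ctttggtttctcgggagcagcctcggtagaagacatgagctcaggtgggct
5876.C: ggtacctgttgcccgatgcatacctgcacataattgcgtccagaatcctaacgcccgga
5713.C: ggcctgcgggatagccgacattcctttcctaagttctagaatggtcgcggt
3779.C: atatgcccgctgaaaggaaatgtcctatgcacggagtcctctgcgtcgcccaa
9479.E: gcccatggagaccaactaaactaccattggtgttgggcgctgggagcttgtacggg
2183.C: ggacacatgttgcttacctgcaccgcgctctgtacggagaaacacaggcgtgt
2638.C: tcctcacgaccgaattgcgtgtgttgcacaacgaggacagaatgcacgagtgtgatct

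The 48 members are a small part of the moderate probes and a larger part of the heat shock top. There were 3340 probes ranked 50 to 90 on all control arrays, and the members were 1.44% of them. Of the same 3340 probes, 1935 stayed between 50 and 90 on all 8 arrays, and 432 were below 50 on all heat shock arrays. Seen from the other side, 390 probes ranked at least 95 on all 4 heat shock arrays, and the members were 12.3% of these. Most of that top, 299 probes or 76.7%, had ranked at least 90 on all control arrays already. Only 5 probes came to it from below 50 on all control arrays, and 38 fitted none of these control classes.

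The upper control bound and the heat shock bound of the rule cut through a continuum of ranks. At the lower control bound, 2836.C had the lowest rank of any member on a control array, 50.9. The nearest probe that failed only this bound, 3575.C, was further off at 45.7, with heat shock ranks of 96.0 to 96.5. At the upper control bound, 7473.C was a member with a highest control rank of 89.97, and 8381.D was not, at 90.04. At the heat shock bound, 5876.C was a member with a lowest heat shock rank of 95.09, and 2403.C was not, at 94.997. In all, 24 probes met the rule on 7 of the 8 arrays. Among the probes nearest the upper control bound and the heat shock bound, membership rests on differences in rank that are small beside those between arrays.

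All 48 members were measurable at 23 °C. Each was well above background on all 8 arrays, and 0 were saturated on a control array. On heat shock arrays, 4 members were saturated at least once: 9769.E and 9317.E on all 4 arrays, and 184.A and 3779.C on replicate 1 alone. Folds of the saturated members are therefore lower bounds. All 48 members passed the filter on dim probes that left 6921 probes for the fit across the array.

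The members' level, a log2 signal relative to its own array, differed between the groups on every array. The level is the log2 signal minus the 75th percentile of that array. The median level over the 48 members was 6.69, 6.75, 6.79 and 6.81 on heat shock replicates 1 to 4, against 0.31, 0.28, 0.39 and -0.02 on control replicates 1 to 4. The heat shock arrays were thus close to each other, at 6.76 ± 0.05 (SD, n = 4), and the control arrays somewhat less so, at 0.24 ± 0.18 (SD, n = 4). The median log2 fold change of a member was 6.76, or 109-fold, with quartiles of 5.49 and 7.95 and a range of 4.55 to 11.59; the typical SE was 0.34 (median over members). Over all 6921 probes tested the median log2 fold change was 0.27. All 48 members were at least 16-fold higher, against 8.97% of all probes tested, 32 were at least 64-fold higher, against 2.7%, and 12 had a log2 fold change of at least 8, against 0.708%. All 48 members were called higher by limma (adjusted p under 0.05), as were 40.7% of all probes tested, and nothing is read from these counts since the rule used the same contrast. In RNA of whole cultures, more transcript per cell and more cells that carry the transcript cannot be told apart.

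The size of these folds depends on the scaling, because the 75th percentile itself was lower on heat shock arrays, at 9.78 ± 0.61 against 12.65 ± 0.24 in controls (log2 signal, SD, n = 4 each). The array's spike-in controls, transcripts of the viral E1A gene added in known amounts, did not share this difference. Their mean over 5 probes was 13.04 ± 0.41 on heat shock arrays and 12.52 ± 0.28 on control arrays (log2 signal, SD, n = 4 each; exact permutation p = 0.114, 2-sided, with 0.0286 the smallest p that 4 against 4 arrays allow). Between arrays of one replicate number the difference was 0.79, 0.44, 0.58 and 0.29 for numbers 1 to 4, higher after heat shock in all 4 pairs, where an exact sign-flip permutation test cannot go below its p of 0.125. With the spike-ins as the scale, the median member was 10.3-fold higher after heat shock (log2 3.36), with members ranging from 2.22-fold to 291-fold. All 48 members were still called higher on this scale (limma, adjusted p under 0.05), against 6.82% of all probes tested. The quartiles over the members were 4.26-fold and 23.5-fold on this scale. Over all probes tested the median log2 fold change relative to the spike-ins was -3.13.

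The signals as read, with no scaling at all, gave a value between these. The median member was 14.8-fold higher after heat shock (log2 3.89), and 48 of 48 were called higher against 8.94% of all probes tested (limma, adjusted p under 0.05). In these raw signals the dimmest heat shock array was above the brightest control array for each of the 48 members, which held for 8.15% of all probes tested. The nearest gap was 1.09-fold and the median gap 7.08-fold. After scaling to the 75th percentile the groups did not overlap for any member either, against 38.2% of all probes tested standing apart in this direction, and the nearest gap was 13.3-fold. The rule fixes most of this separation.

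The members held a larger part of the whole signal on every heat shock array than on any control array. Their share was 5.94%, 5.49%, 6.24% and 5.77% of the summed signal of all probes on heat shock replicates 1 to 4, against 0.253%, 0.270%, 0.323% and 0.197% on control replicates 1 to 4. That is 5.86% ± 0.32 after heat shock and 0.261% ± 0.052 in controls (SD, n = 4 each), a 22.5-fold larger share. Saturated probes, which numbered 33 to 103 per heat shock array and 36 to 108 per control array, members and others alike, enter these sums at the scanner's limit.

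Probe 9769.E had the largest fold change with saturated signals taken as read; since 9317.E was saturated as well, the true order of the largest folds is not known. Its signal was 635364, 615148, 625975 and 666348 on heat shock replicates 1 to 4, against 1537, 2110, 2247 and 732 on control replicates 1 to 4. The 4 heat shock values lie together at the scanner's limit, so the differences between them carry no information on the transcript. With saturated spots at their value it was at least 3073-fold higher relative to the 75th percentile (log2 11.59, SE 0.41) and at least 291-fold relative to the spike-ins (log2 8.18, SE 0.41). Its control rank, 52.4 to 62.3, was near the lower bound of the rule.

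The largest changes among members that were saturated on no array were those of 9199.E and 4432.C. Probe 9199.E had signals of 306813, 202674, 183678 and 208125 on heat shock arrays, against 3059, 1092, 2001 and 945 on control arrays. It was 1024-fold higher relative to the 75th percentile (SE 0.37 on the log2 scale), and its log2 fold change relative to the spike-ins was 6.60. Control replicates 1 and 3 were the higher ones, and the groups were far apart. Probe 4432.C had signals of 276884, 201034, 188615 and 193856 on heat shock arrays, against 2639, 1573, 1340 and 1356 on control arrays. Its change was 942-fold relative to the 75th percentile (log2 9.88, SE 0.32) and 89.2-fold relative to the spike-ins. Replicate 1 had the highest signal as read in both groups. Relative to the 75th percentile, heat shock replicate 1 was the lowest of its group, at 7.42 against 7.86 to 8.31.

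Probe 9317.E was the other member saturated on every heat shock array. Its signals there were 629347, 615171, 638552 and 664545, against 19307, 4589, 6581 and 5089 on control arrays. Control replicate 1 was thus well above the other control arrays, and the heat shock arrays were again at the scanner's limit. Its fold was at least 634 relative to the 75th percentile (log2 9.31, SE 0.46) and at least 60.0 relative to the spike-ins. Probe 184.A, saturated on heat shock replicate 1 only, had signals of 596067, 294322, 253413 and 318464 on heat shock arrays, against 5940, 11973, 10201 and 6054 on control arrays. Here the order of the control arrays differed, with replicates 2 and 3 above 1 and 4.

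At the other end were members that were fairly bright at 23 °C. Probe 5914.C had signals of 123278, 32958, 41116 and 72000 on heat shock arrays, against 18458, 24606, 19364 and 13163 on control arrays. The lowest heat shock array was 1.34-fold above the highest control array. This probe was 23.5-fold higher relative to the 75th percentile (log2 4.55, SE 0.31) and 2.22-fold higher relative to the spike-ins (log2 1.15, SE 0.44). On the spike-in scale its call was marginal and was lost in several fits that left out an array. The change was not called (limma, adjusted p under 0.05) without heat shock replicate 1 or 4, where it was 1.92-fold and 1.86-fold. Nor was it called without control replicate 1, 2 or 4, where it was 2.11-fold to 2.28-fold. One further member, 4513.C, was not called on that scale without heat shock replicate 4, where it was 2.17-fold higher.

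Close to it were 2689.C and 5876.C. Probe 2689.C had signals of 102756, 34115, 46904 and 55221 on heat shock arrays, against 23683, 18183, 15310 and 11595 on control arrays. It was 24.3-fold higher relative to the 75th percentile (log2 4.60, SE 0.28) and 2.30-fold higher relative to the spike-ins. Probe 5876.C had signals of 91905, 29317, 27094 and 47112 on heat shock arrays, against 16330, 11650, 11193 and 10248 on control arrays. Its change was 26.0-fold relative to the 75th percentile (log2 4.70, SE 0.29) and 2.47-fold relative to the spike-ins. Heat shock replicate 1 was the highest array for all 3 of these probes, and it also had the highest median signal over all probes of the 4 heat shock arrays, 138 against 78.0 to 83.3.

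Members with lower control ranks had larger folds (Spearman correlation of -0.87 between mean control rank and log2 fold change over the 48 members), and members with higher heat shock ranks had larger folds as well (Spearman correlation of 0.75). Both are descriptions of a set whose bounds leave little other room, since each fold is made of the same levels that give the ranks. On the control side 8 members ranked at least 80 on all 4 control arrays and 7 ranked below 70 on all 4. On the heat shock side 17 members ranked at least 97 on all 4 heat shock arrays, and 2 at least 99, which were the saturated 9769.E and 9317.E.

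Most members varied more between control arrays than between heat shock arrays. The SD of a member's level had a median of 0.32 over heat shock arrays and of 0.40 over control arrays, and it was larger in controls for 33 of the 48. Over all 10000 probes the medians ran the other way, at 0.68 over heat shock arrays and 0.49 over control arrays. All probes include many dim ones, as 5151 to 6718 probes were well above background on a heat shock array. The 3340 moderate probes met the same control bounds as the members. Their medians were 0.60 over heat shock arrays and 0.36 over control arrays. The members' control median was thus below that of all probes but slightly above that of the moderate probes. The counts of members in this paragraph were not made for other probes. Probes as bright as the members after heat shock were not compared. The rule allows a wider range of ranks in controls than after heat shock, so part of the members' order may be built in, and it was not tested. The range between the highest and the lowest array reached 2-fold for 8 members on heat shock arrays, against 21 members on control arrays. It reached 4-fold for 0 members on heat shock arrays, where the widest was 2.52-fold, and for 6 members on control arrays.

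Probe 5713.C had the widest control range. Its level was 7.83, 7.96, 7.89 and 7.67 on heat shock replicates 1 to 4, against -1.17, 0.16, 1.12 and -2.72 on control replicates 1 to 4. The control arrays thus differed by 14.3-fold, with replicate 3 highest and replicate 4 lowest, while the heat shock arrays stayed within 1.22-fold. Probe 2183.C had the same order of control arrays, with levels of 5.88, 5.77, 5.79 and 5.81 on heat shock replicates against -0.19, 1.31, 1.76 and -0.46 on control replicates. Its range was 1.08-fold between heat shock arrays and 4.68-fold between control arrays.

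In another pattern control replicate 1 stood above the rest. Probe 3779.C had levels of 8.43 (a lower bound, as its spots were saturated there), 8.94, 8.33 and 8.35 on heat shock replicates 1 to 4, against 1.47, -1.33, -1.16 and -0.64 on control replicates 1 to 4. Probe 9479.E had levels of 7.55, 8.31, 8.11 and 8.49 on heat shock replicates, against 2.15, 0.16, 0.41 and -0.13 on control replicates. The remaining members with 4-fold control ranges were 5949.C and 9183.E, both highest on control replicate 2 and lowest on control replicate 4. Control replicate 4 was the lowest array for 5 of the 6, and for 20 of all 48 members. All heat shock levels of the 6 lay above all of their control levels, by 4.01 (log2) at the nearest for 2183.C. This held for 38.2% of all probes tested, and the rule fixes most of it for members.

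At the steady end was 2638.C, with the smallest SD of any member in both groups. Its level was 6.87, 6.92, 6.85 and 6.92 on heat shock replicates 1 to 4, against -0.47, -0.79, -0.60 and -0.63 on control replicates 1 to 4, an SD of 0.04 and of 0.13 (n = 4 each). It was 183-fold higher after heat shock relative to the 75th percentile (log2 7.51, SE 0.27) and 17.3-fold higher relative to the spike-ins. A wide range in controls did not go with a wide range after heat shock in any marked way (Spearman correlation of 0.19 over the 48 members, all on the same 8 arrays).

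The arrays of a group did not resemble each other equally. Across the 48 members, which are not independent replicates, heat shock replicates 2 and 3 were most alike (Spearman correlation of 0.96), and heat shock replicates 1 and 2 least (0.75). Among controls, replicates 2 and 3 were again most alike, at 0.93, and replicates 1 and 3 least, at 0.63. Replicates 1 and 4 correlated at 0.88 on heat shock arrays and at 0.82 on control arrays. This order does not follow the rows of the slide. Whether it reflects shared cultures, dark or light growth before treatment, or handling was not tested, as the labels give none of these per array. Between a heat shock and a control array the correlation was negative in all 16 pairs, from -0.45 to -0.17, a range that the bounds of the rule help to set.

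The slide's rows gave similar values for the members. The median log2 fold change of the members was 6.67 in the first row (replicates 1 and 2 of each group) and 6.86 in the second (replicates 3 and 4). All 48 were called higher in each row alone (limma, adjusted p under 0.05, 2 arrays a group). So were 1876 of 6863 probes tested in the first row and 2485 of 6921 in the second. Nothing is read from these counts, since the rule used the same contrast in both rows. For a single member the rows differed by 0.28 at the median and by 1.39 at most (log2). Between arrays of one replicate number the smallest difference of any member was 3.88, for pair 2. Within an array, the 20 members spotted 2 times gave a median difference between their spots of 0.03 to 0.09 on heat shock arrays and 0.06 to 0.07 on control arrays (log2). These differences were smaller than those between arrays of a group, whose medians over members were 0.21 to 0.49 on heat shock arrays and 0.27 to 0.60 on control arrays.

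In length and base composition the members lay within the range of the other probes. Their lengths were 50 to 60 bases with a median of 54, against 45 to 60 with the same median over all probes. Their GC content had a median of 54.2% and a range of 45.1% to 66.0%, against a median of 55.4% and a range of 38.5% to 73.1% over all probes. Members poorer in G and C had somewhat larger folds (Spearman correlation of -0.39 over 48 members, without a test). Of the members at the ends of the GC range, 350.A and 9199.E, both with 45.1% GC, were 370-fold and 1024-fold higher, and 7473.C, with 66.0%, was 31.3-fold higher relative to the 75th percentile. The sequences of 350.A and 7473.C, and that of 4875.C, which holds the longest internal repeat of any member, are these, with capitals in 4875.C for a run of 11 bases that occurs 2 times.
350.A: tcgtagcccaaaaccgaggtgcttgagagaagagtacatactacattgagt
7473.C: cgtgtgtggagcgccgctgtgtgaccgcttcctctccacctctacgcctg
4875.C: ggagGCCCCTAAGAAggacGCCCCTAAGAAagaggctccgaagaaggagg

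Values of these 3 probes followed the general pattern. Probe 350.A had signals of 337292, 153760, 151415 and 194653 on heat shock arrays, against 5502, 6885, 2760 and 2266 on control arrays. Probe 7473.C had signals of 173142, 53813, 69254 and 74176 on heat shock arrays, against 37788, 19963, 22409 and 8605 on control arrays. Probe 4875.C had signals of 127233, 68886, 69946 and 66581 on heat shock arrays, against 23359, 12568, 15956 and 7283 on control arrays. The groups did not overlap in these signals for any of them, which held for 8.15% of all probes tested and which the rule largely fixes. Replicate 1 had the highest heat shock signal for each, but it was also the brightest heat shock array by its 75th percentile. Relative to that percentile, replicate 1 was the lowest heat shock array for 350.A (level 7.71) and 4875.C (6.30). It was still the highest for 7473.C (6.75). A repeat of 11 bases or more was present in 0.41% of all probes.

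No member shared a run of 16 bases with any other probe of the array on either strand, and 4 members shared 14 bases with a probe that was no member. The 48 probes thus do not read overlapping stretches of one sequence, though several may still lie in different parts of one transcript. The word TGTAA, the usual polyadenylation signal of Chlamydomonas messages, was found as written in 2 members (4.17%) and in 2.82% of all probes. On the other strand (TTACA) it was found in 1 member (2.08%) and in 3.49% of all probes. Such a match is a description of the letters and does not place a probe in its transcript.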

How the data were processed

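The deposited intensity of each spot came, per the file headers, from Agilent Feature Extraction (version 9.5.3.1) with detrending and with surrogate values for dim spots, unscaled between arrays. The deposited log2 values of a second table are centred on each probe; how the authors made them is not stated, and compared with the scanner signals they followed the 75th percentile scaling (slopes 0.99 to 1.00). Their column medians were -0.02, 0.64, 0.80 and 0.87 for heat shock replicates 1 to 4 and -0.54, -0.48, -0.44 and -0.13 for control replicates 1 to 4. The between-array scaling of that table is not stated; its direction and log base follow from this comparison.

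Between 0.362% and 2.06% of an array's spots carried an outlier flag (uneven pixels, or far from their replicate spots) and were dropped. The level of a probe is the mean log2 signal of its remaining spots minus the array's 75th percentile. Probes well above background on at least 4 of 8 arrays (6921) entered limma 3.58.1 in R 4.3.3, with Benjamini-Hochberg adjustment; the fit was tested on simulated data. Same-numbered arrays of the groups deviated together, with correlations of 0.32, 0.12, 0.33 and 0.20 for numbers 1 to 4 over 4488 probes. Over the members these were 0.07, 0.06, 0.26 and 0.22, and 3 of 4 heat shock arrays were closest to the control of their own number. Replicate numbers were therefore taken as pairs on the basis of the data, not the labels, but only in alternatives and in comparisons between same-numbered arrays. The main fit, with its SEs and calls, was unpaired. Same-numbered arrays also lay in neighbouring columns of one slide row, so pairing and place on the slide cannot be told apart. The array number limits the precision. Spike-in scaling used the 5 of 10 E1A probes above background and unsaturated on every array. Alternatives were other scalings, background corrections, filters and blocks and leaving out each array.

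The members and the analyses were chosen with earlier results of these data known. Named probes were the 3 largest and 3 smallest fold changes as read, those nearest the bounds of the rule, and others chosen after their values were seen (9317.E, 184.A, 5713.C, 3779.C, 9479.E, 2183.C, 5949.C, 9183.E, 2638.C, 4875.C, 7473.C, 350.A and 4513.C). The planned gene lists and promoter motifs needed probes matched to genes by sequence. No genome, transcript or protein sequences were at hand for that match, so it was not attempted and the lists and motifs were not run.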

Additional observations from a re-analysis of the deposited data

Results flagged for a closer look

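The levels of 16 named members and 3 array-wide measures made 38 sets of 4 arrays, and 1 was singled out. Chance would single out about 1.9 if the sets were independent and chosen without regard to their values. Here 10 of the members were named after their values were seen, and all sets share the same 8 arrays. Nothing is therefore read from this comparison. For 3779.C, heat shock replicate 2 lay above the other heat shock arrays, at 8.94 against 8.43, 8.33 and 8.35, so that this distance made up 0.832 of the range over the group. The spots of this probe were saturated on heat shock replicate 1, whose 8.43 is only a lower bound, so neither the gap nor the place of replicate 2 above replicate 1 is established. Its control levels were 1.47, -1.33, -1.16 and -0.64.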

How the results depend on the processing

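The number of members followed the bounds of the rule: 86 probes qualified with a control bound of 95 in place of 90, and 17 with a heat shock bound of 97 in place of 95. It was 48 to 55 when the rule was applied without single arrays, 50 without spot flags, 48 with the median of spots and 49 with normexp correction, which kept 45 of the 48. The median log2 fold change of the members was 6.76, and became 3.36 with spike-in scaling, 5.59 with quantile normalization, 3.89 without scaling (added after the data were seen) and 6.56 without the 4 members saturated on any array. Leaving out single arrays gave 6.67 to 6.87, and the other alternatives stayed within the replicate SD of 0.18. Taking the replicate pairs as a block left the median at 6.76 and changed no member's call, with 48 members called higher, against 2895 of 6921 probes tested. The block on the spike-in scale, also added later, gave 48, against 498 of 6921. All 48 members were called higher under each of the 20 alternatives run on the main fit (limma, adjusted p under 0.05). Over all probes tested, the largest share was called without the filter on dim probes, 5273 of 9973. The smallest was called with spike-in scaling, 472 of 6921. On the spike-in scale 46 to 48 members were called when single arrays were left out, and 46 without heat shock replicate 4. Over all probes tested these fits called from 420 of 6919 to 542 of 6921. Nothing is read from these counts, since the rule used the same contrast. The share of summed signal was 5.73% to 5.98% after heat shock and 0.240% to 0.282% in controls without single arrays. For 16 members, the 3 largest and 3 smallest folds and 10 others, direction and call were kept in the 320 comparisons run, which did not include leaving out arrays on the spike-in scale, where 5914.C and 4513.C lost their call. For 5949.C, 9183.E, 4513.C and members named only for a bound, single values were not compared. The spike-in difference was 0.52 unpaired and with replicate pairs, and 0.38 to 0.69 without single arrays (pairs and arrays added later), past the threshold in none of these (exact permutation p of 0.057 to 0.20). The test with pairs could not pass it, since its smallest possible p is 0.125, so nothing is read from that outcome. Saturation limits the folds of 9769.E and 9317.E, and with 4 arrays a group small differences between members are not resolved.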
